A study of Mus musculus with 2 samples.

Results

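The genes described here are 10 members of the fibroblast growth factor (FGF) pathway, namely the ligands *Fgf15*, *Fgf2* and *Fgf9*, the receptors *Fgfr1*, *Fgfr2* and *Fgfr3*, and the feedback and target genes *Spry1*, *Spry2*, *Etv4* and *Etv5*. They were taken by symbol from the 32285 genes of the deposited count matrices, and all 10 were found. The study dissected the dorsal telencephalon of mouse embryos at embryonic day 14.5 (E14.5), dissociated it with papain and sequenced single cells with the 10x Genomics 3′ v3.1 chemistry. Both libraries came from WT embryos, named in the series text as controls of the Eomes-Cre line (EomesMllt3), whereas the study's methods name C57BL/6J mice. They are replicates 1 and 3 of 1 group, with the tissue named brain hemispheres. The design has no second condition, so the comparisons below are between cell types. How many embryos went into each library and the alleles behind WT are not given in the sources used here. The p-values therefore measure the spread between 2 libraries, which may be in part technical.

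Secreted FGFs bind receptor tyrosine kinases of the FGFR family together with heparan sulfate, and the signal runs through RAS and ERK kinases to transcription factors of the ETS family, among them Etv4 and Etv5. Sprouty proteins such as Spry1 and Spry2 are induced by the same signal and damp it, so their transcripts are often read together with *Etv4* and *Etv5* as targets of the pathway. In the embryonic cortex, FGFs from the anterior midline pattern the early neuroepithelium and FGF receptors are best known in radial glial cells (RGCs), the progenitors that line the ventricle and give rise to intermediate progenitor cells (IPCs) and to projection neurons.

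The libraries held 6163 and 8870 barcodes with 64182006 and 93295807 unique molecular identifiers (UMIs), a median of 9802 and 9754 UMIs per barcode. After filters and removal of predicted doublets, 12003 of 15033 barcodes were kept and fell into 26 clusters. Of the barcodes, 23 were shared by both libraries, 16 of them among those kept. The 10 members and 81 other pathway genes in 6 lists were left out of the genes used for clustering and naming. The classes still came from the same cells, so a test between them is not independent of the clustering. A level is given in CPM, the UMIs of a gene per 1000000 UMIs of the class in that library, replicate 1 before replicate 3. RGC-like cells numbered 549 and 1071, IPC-like cells 548 and 1248, projection neuron-like cells 2375 and 2465, and medial ganglionic eminence (MGE) interneuron-like cells 333 and 218. The summed level of 10 RGC markers was 8123 and 6378 CPM in the RGC-like class and 735 and 600 CPM in the IPC-like class. Small classes were Cajal-Retzius-like (39 and 79 cells), meningeal-like (48 and 141), pericyte-like (39 and 45), endothelial-like (25 and 51), microglia-like (54 and 54) and red blood cell-like (67 and 109). A GABAergic-like class was nearly confined to replicate 1, with 439 against 27 cells. Clusters whose leading genes went against a name stayed unnamed and are called by their leading genes. Since CPM values are relative, a lower level in a class and a larger total RNA content per cell cannot be told apart.

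The genes lie on several mouse chromosomes (GRCm38.p6, RefSeq), among them *Fgfr3* at chr5:33721724-33737068, *Spry2* at chr14:105891947-105896819 on the minus strand and *Etv5* at chr16:22381313-22439570 on the minus strand. Windows of the 250 bases upstream of RefSeq transcript starts were found for 7 of the 10 members. Those of *Fgfr3*, a receptor gene highest in progenitors, and of *Spry1*, *Spry2* and *Etv5*, the feedback and target genes with a window, are shown. Each is printed 5′ to 3′ on the strand of its gene, with the letters GGAA, the core shared by ETS factor sites, or the complement TTCC in capitals.
Fgfr3, chr5:33721474-33721723, plus strand: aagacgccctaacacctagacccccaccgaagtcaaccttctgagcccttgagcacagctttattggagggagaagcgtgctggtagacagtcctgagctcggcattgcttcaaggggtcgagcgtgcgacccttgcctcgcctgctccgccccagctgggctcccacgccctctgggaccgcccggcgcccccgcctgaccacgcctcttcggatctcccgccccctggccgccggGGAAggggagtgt
Fgfr3, chr5:33722056-33722305, plus strand: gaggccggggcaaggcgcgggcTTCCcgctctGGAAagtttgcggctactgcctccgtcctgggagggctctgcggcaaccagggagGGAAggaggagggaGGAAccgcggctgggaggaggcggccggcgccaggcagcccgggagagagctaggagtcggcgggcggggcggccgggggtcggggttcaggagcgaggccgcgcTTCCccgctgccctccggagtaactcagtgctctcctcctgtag
Spry1, chr3:37639697-37639946, plus strand: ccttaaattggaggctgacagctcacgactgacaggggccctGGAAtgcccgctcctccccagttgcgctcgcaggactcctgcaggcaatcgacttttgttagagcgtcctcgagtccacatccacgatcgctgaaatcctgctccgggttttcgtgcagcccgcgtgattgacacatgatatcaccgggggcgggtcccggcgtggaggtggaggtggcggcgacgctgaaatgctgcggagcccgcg
Spry2, chr14:105896820-105897069, minus strand: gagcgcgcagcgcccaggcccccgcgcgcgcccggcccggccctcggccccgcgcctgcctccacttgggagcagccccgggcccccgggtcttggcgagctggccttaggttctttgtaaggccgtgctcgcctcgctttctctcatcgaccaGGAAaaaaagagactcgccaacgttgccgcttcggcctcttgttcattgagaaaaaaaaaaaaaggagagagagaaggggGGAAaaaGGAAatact
Etv5, chr16:22439571-22439820, minus strand: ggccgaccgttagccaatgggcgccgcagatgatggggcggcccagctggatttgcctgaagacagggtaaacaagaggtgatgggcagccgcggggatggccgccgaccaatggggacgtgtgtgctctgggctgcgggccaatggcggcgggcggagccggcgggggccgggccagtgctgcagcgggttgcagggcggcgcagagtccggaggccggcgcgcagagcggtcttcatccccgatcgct
Etv5, chr16:22438369-22438618, minus strand: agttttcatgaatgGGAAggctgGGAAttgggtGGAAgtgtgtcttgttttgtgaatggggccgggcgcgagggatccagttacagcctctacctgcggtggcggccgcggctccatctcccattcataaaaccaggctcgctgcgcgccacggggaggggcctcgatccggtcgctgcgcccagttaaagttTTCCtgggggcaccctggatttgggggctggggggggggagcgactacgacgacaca

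GGAA, searched on both strands, occurred 5 times in the second *Fgfr3* window, 4 times in the second *Etv5* window, 3 times in that of *Spry2*, once in the first *Fgfr3* window and in that of *Spry1*, and not in the first *Etv5* window. In all, 8 of 9 member windows held it. It stood in 93.4% of the 32851 windows of the same length in the RefSeq table, with a median of 3 matches per window, so most windows hold it whatever the gene. The longer letters CCGGAAG, which contain GGAA, were in 0 of the 9 member windows and in 6.91% of all windows. These are matches of letters, and the libraries hold no measure of binding.

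Among the ligands, each had its highest mean in a different class. *Fgf15*, a ligand of ventricular progenitors, had its highest mean in RGC-like cells, at 6.47 and 1.46 CPM from 51 and 21 UMIs. The cluster led by *Adamts19* and *E330013P04Rik* came next at 3.42 and 1.09 CPM, and the ranges of both overlapped. The cluster led by *Ttr* and *Htr2c* had 0 and 1.82 CPM, from 0 and 3 UMIs, above RGC-like cells in replicate 3. IPC-like cells held 1 *Fgf15* UMI in each library and projection neuron-like cells 3 in each, while Cajal-Retzius-, meningeal-, pericyte-, endothelial-, microglia- and red blood cell-like cells held 0.

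*Fgf2*, a broadly acting growth factor, was highest in meningeal-like cells, at 21.0 and 25.5 CPM from 15 and 43 UMIs. No other class reached that range in either library. The *Adamts19* cluster had 1.37 and 4.73 CPM and RGC-like cells 1.90 and 1.53 CPM, which overlapped. IPC-like cells were at 0.161 and 0.152 CPM, and MGE interneuron-like cells held 0 UMIs in both libraries.

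*Fgf9*, a ligand made by neurons, had its highest levels in GABAergic-like cells, at 11.4 and 23.4 CPM, and in Cajal-Retzius-like cells, at 12.7 and 3.1 CPM. The second value of each pair rests on 3 UMIs, and these ranges overlapped. In the GABAergic-like class, 16 of 439 and 2 of 27 cells held an *Fgf9* UMI. MGE interneuron-like cells had 2.29 and 1.80 CPM, from 4 and 2 UMIs, and projection neuron-like cells 1.54 and 1.19 CPM. These ranges did not overlap, but edgeR did not call the difference (0.43 on the log2 scale, adjusted p = 0.591). Within projection neuron-like cells, the cluster led by *Tafa1* stood at 4.77 and 10.2 CPM, with 13 and 11 UMIs, and the next highest cluster reached 1.60 CPM. RGC-like cells, at 0.254 and 0.278 CPM, and IPC-like cells, at 0.322 and 0.152 CPM, were at the low end.

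The 3 receptors were all high in RGC-like cells and parted ways in the other classes. *Fgfr1* was highest in RGC-like cells, at 145 and 107 CPM, above the range of any other class. Meningeal-like cells followed with 85.6 and 84.9 CPM and the *Adamts19* cluster with 84.9 and 81.5 CPM. Projection neuron-like cells had 62.1 and 68.2 CPM, IPC-like cells 32.7 and 36.0 CPM, and MGE interneuron-like cells 16.0 and 23.4 CPM, in ranges that did not touch each other. Red blood cell-like cells, which should lack the gene, were at 2.72 and 5.20 CPM, from 1 and 3 UMIs.

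*Fgfr2* was the receptor most evenly spread. RGC-like cells were at 338 and 322 CPM and MGE interneuron-like cells at 298 and 309 CPM. The *Smoc1* and *Neurog1* cluster, the *Ttr* and *Htr2c* cluster and GABAergic-like cells had levels between 227 and 316 CPM, each overlapping its neighbour in the order. Projection neuron-like cells had 159 and 140 CPM and IPC-like cells 106 and 101 CPM. Red blood cell-like cells were lowest with 21.7 and 13.9 CPM.

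*Fgfr3* was the receptor most restricted to progenitors. The *Adamts19* cluster had 78.0 and 59.0 CPM and RGC-like cells 66.5 and 67.3 CPM, and these ranges overlapped. Below them, without overlap, came the *Smoc1* and *Neurog1* cluster at 27.4 and 28.8 CPM and IPC-like cells at 13.2 and 10.3 CPM. Projection neuron-like cells had 3.18 and 3.11 CPM. Cajal-Retzius- and pericyte-like cells held 0 *Fgfr3* UMIs in both libraries. Red blood cell-like cells, which should lack the gene, were at 13.6 and 0 CPM, from 5 and 0 UMIs, a range that spans that of IPC-like cells.

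**Figure D1:**
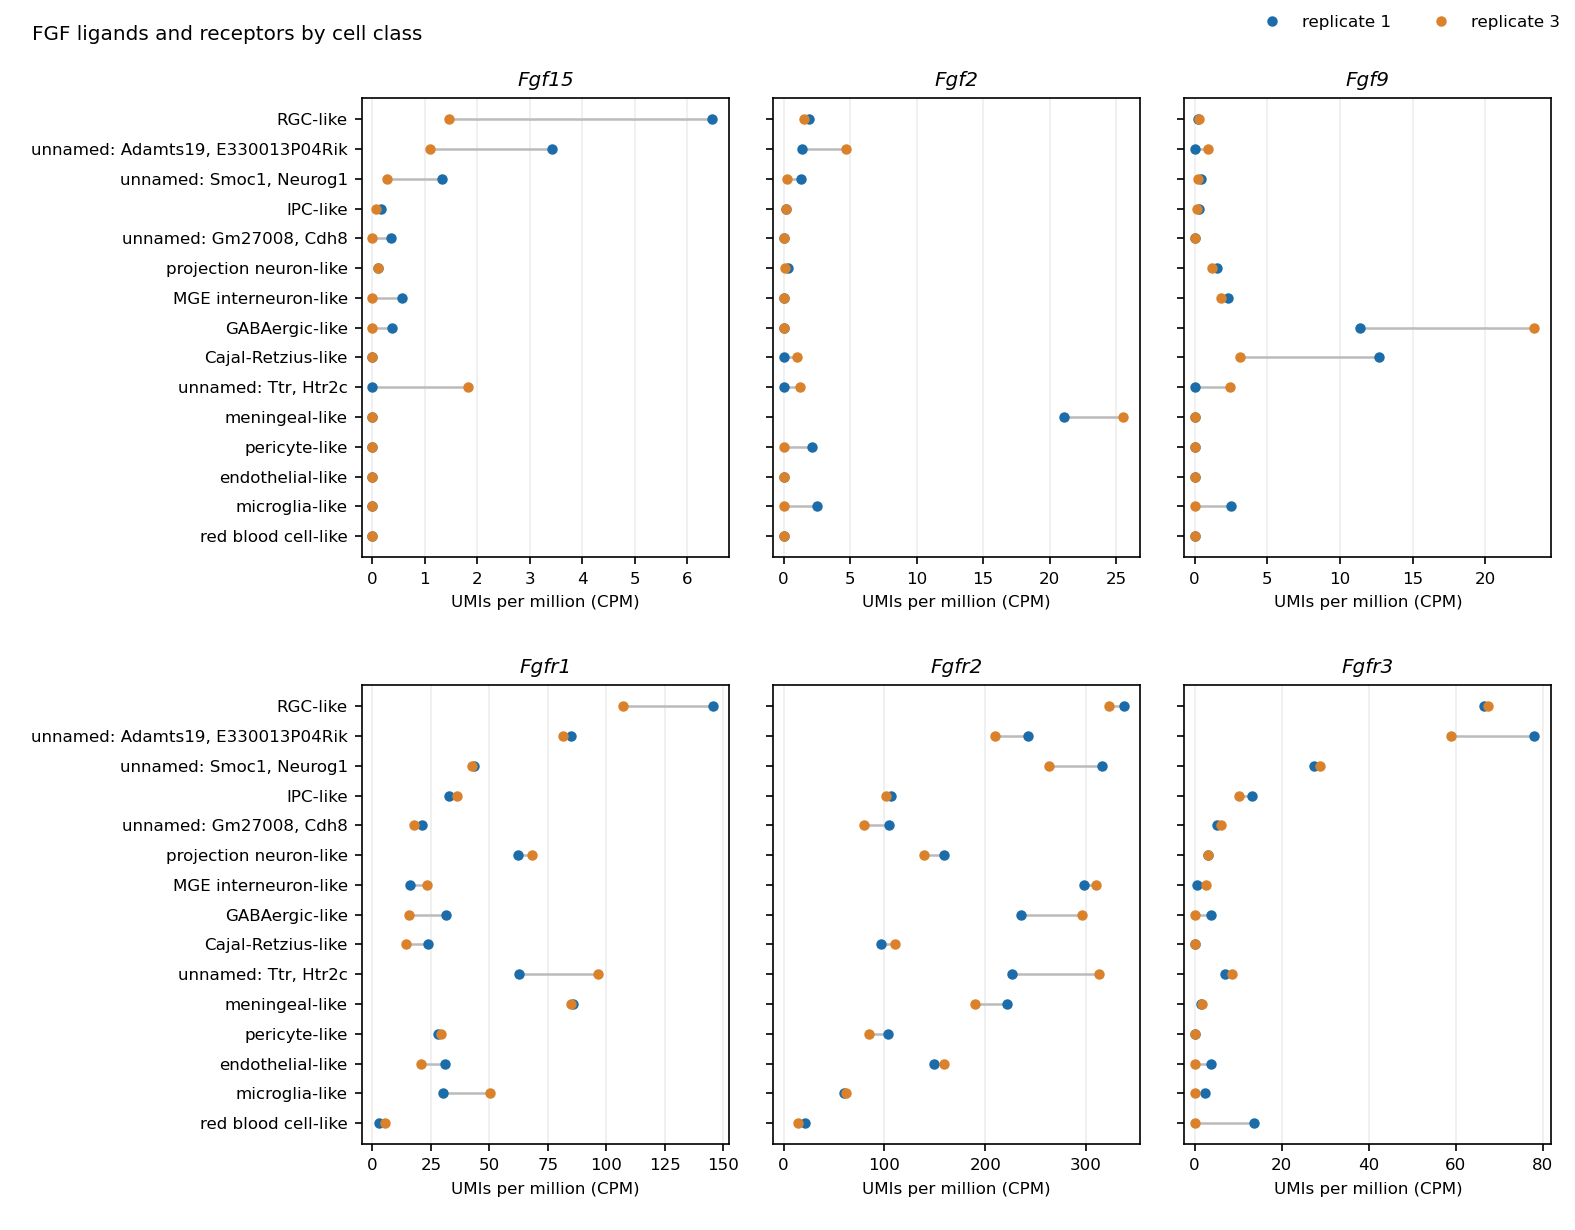
Levels of the 3 ligands (top) and 3 receptors (bottom) in CPM (x axis, a linear scale of its own for each gene) in 15 cell classes (rows), with 1 point for each library and a grey line from one to the other. *Fgf2* stands apart in meningeal-like cells at 21.0 and 25.5 CPM, while *Fgfr3* is high in RGC-like cells and the *Adamts19* cluster and near 0 in most other classes.

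Shares of cells at equal depth gave the same order of the 4 large classes for *Fgfr2*. With every cell thinned to 3000 UMIs, *Fgfr2* had at least 1 UMI in 59.8% and 63.3% of RGC-like cells, in 53.6% and 59.0% of MGE interneuron-like cells, in 34.3% and 32.9% of projection neuron-like cells and in 26.8% and 25.7% of IPC-like cells. *Fgfr1* was found in 33.3% and 28.1% of RGC-like cells and *Fgfr3* in 20.8% and 17.4%. *Etv5* was found in 14.4% and 10.8%. Without thinning, the shares in RGC-like cells were 94.5% and 94.0% for *Fgfr2*, 76.9% and 66.5% for *Fgfr1*, 46.6% and 47.7% for *Fgfr3* and 44.3% and 30.3% for *Etv5*, and those of *Fgfr2* were 69.1% and 72.5% in MGE interneuron-like, 71.0% and 69.4% in projection neuron-like and 62.2% and 58.1% in IPC-like cells, so that projection neuron-like cells passed MGE interneuron-like cells in replicate 1. Red blood cell-like cells, as the class that should lack these genes, gave 1 of 49 cells and 1 of 63 cells for *Fgfr2* and for *Fgfr1*. For *Fgfr3* it was 1 of 49 and 0 of 63, and none held *Etv5*. A count of 0, as for *Etv5*, allows up to 6.12% and 4.76% of cells with a UMI at this depth. It sets no limit on cells that express the gene. Unthinned, 3 of 67 and 5 of 109 red blood cell-like cells held *Fgfr2*. Their median depth was 4881 and 3685 UMIs before thinning, against 13791 and 12623 in RGC-like cells, and 18 and 46 of them fell below 3000 UMIs and were left out, against 21 and 25 RGC-like cells.

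The Sprouty genes had their highest means in pericyte-like cells. *Spry1* reached 86.4 and 51.9 CPM in pericyte-like cells, from 40 and 32 UMIs. The *Ttr* and *Htr2c* cluster had 45.3 and 55.8 CPM, overlapping the pericyte-like range and above it in replicate 3, and meningeal-like cells 28.1 and 20.8 CPM. RGC-like cells at 2.67 and 1.81 CPM, projection neuron-like cells at 2.11 and 1.44 CPM and IPC-like cells at 1.45 and 1.52 CPM were all below these, and RGC-like and projection neuron-like cells overlapped.

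*Spry2* was also highest in pericyte-like cells, at 64.8 and 47.1 CPM. Meningeal-like cells followed with 30.9 and 30.3 CPM. Unlike *Spry1*, it was plainly present in RGC-like cells, at 19.9 and 10.6 CPM, and in MGE interneuron-like cells, at 17.2 and 9.02 CPM, which overlapped. Projection neuron-like cells had 5.36 and 5.24 CPM and IPC-like cells 2.74 and 2.28 CPM.

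The ETS factor genes were present in RGC-like and in some non-neural cells. *Etv4* had 25.9 and 13.0 CPM in pericyte-like cells, 13.9 and 9.70 CPM in the *Ttr* and *Htr2c* cluster and 10.0 and 4.45 CPM in RGC-like cells, each overlapping the next. Endothelial-like cells had 1.94 and 0 CPM, IPC-like cells 0.966 and 0.457 CPM and projection neuron-like cells 0.357 and 0.614 CPM.

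*Etv5* had its highest mean in RGC-like cells, at 64.6 and 38.4 CPM, with 509 and 552 UMIs. Microglia-like cells, with 37.6 and 39.3 CPM, overlapped that range. The leading genes of this class were *Pf4* and *Mrc1*, with *C1qa* and *Lyve1* also among them. Whether the class holds macrophages other than microglia was not tested. Pericyte-like cells had 30.3 and 22.7 CPM and meningeal-like cells 28.1 and 24.3 CPM, while endothelial-like cells had 3.88 and 4.19 CPM. IPC-like cells were at 10.3 and 1.37 CPM and projection neuron-like cells at 4.57 and 1.48 CPM, and red blood cell-like cells held none.

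**Figure D2:**
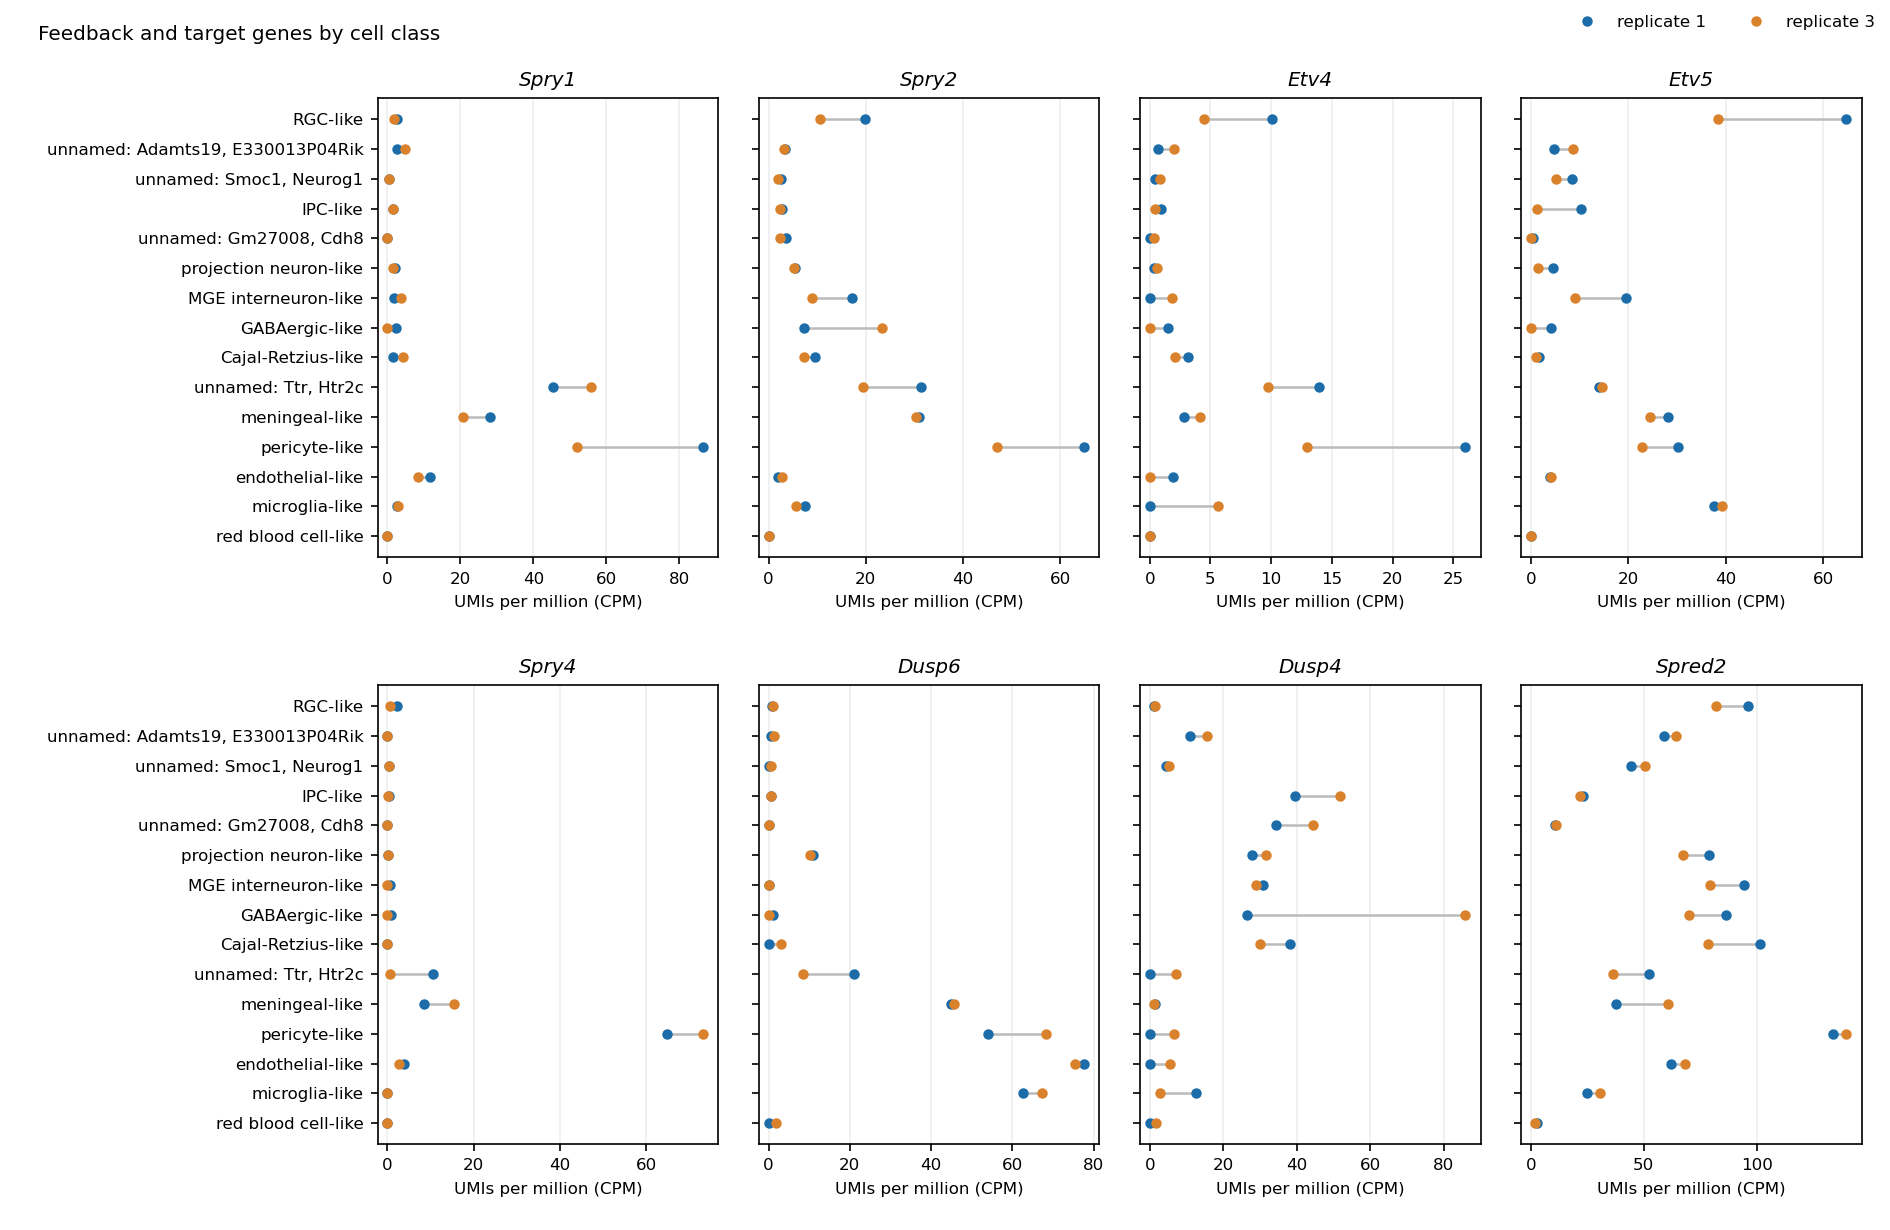
Levels of the 4 feedback and target members (*Spry1*, *Spry2*, *Etv4*, *Etv5*) and of 4 other pathway genes (*Spry4*, *Dusp6*, *Dusp4*, *Spred2*) in CPM (x axis, a linear scale of its own for each gene) in 15 cell classes, with 1 point for each library and a grey line from one to the other. Pericyte-like cells lead by mean for *Spry1*, *Spry2* and *Spry4*, while *Etv5* has its highest mean in RGC-like cells, where *Dusp6* is close to 0.

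The libraries differed in the level of several members. In RGC-like cells, the ratio of replicate 1 to replicate 3 was 1.68 for *Etv5* (95% counting interval 1.49 to 1.90), 2.25 for *Etv4* (1.60 to 3.19), 1.87 for *Spry2* (1.49 to 2.36) and 4.44 for *Fgf15* (2.62 to 7.77). For *Fgfr2* it was 1.05 (0.998 to 1.10) and for *Fgfr3* 0.988 (0.887 to 1.10), and *Fgfr1* was at 1.36 (1.26 to 1.47). *Spry1*, at 1.48 (0.789 to 2.73), had an interval that spans 1. The same direction was seen for *Etv5* in IPC-like cells, with a ratio of 7.52 (4.40 to 13.5), and in projection neuron-like cells, with 3.09 (2.16 to 4.50). In projection neuron-like cells the ratio was 1.02 for *Spry2* (0.809 to 1.29), 0.582 for *Etv4* (0.238 to 1.34) and 1.14 for *Fgfr2* (1.09 to 1.19). These intervals are exact, are for the counts of these 2 libraries alone and cover counting error only. The summed RGC markers also stood higher in replicate 1 in the RGC-like and the IPC-like class, as given above, and their part in the *Etv5* ratio was not tested.

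Between RGC-like and IPC-like cells, 8 of the 10 members were higher in the RGC-like class, with 0 lower. All 3 receptors were lower in the IPC-like class, *Fgfr3* the most of them, and so were both ETS factor genes and *Spry2*. Over all 15362 genes tested, 25.0% were called higher and 24.8% lower in RGC-like cells, 49.9% in either direction, at an adjusted p under 0.05. The median log2 fold change was 2.41 over the members, beside -0.00 over all genes. The members were chosen with earlier results of these data known, so this contrast is a description only.

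For *Fgfr3* the log2 fold change was 2.41 ± 0.17 (SE, n = 2 libraries for each class, adjusted p = 9.28e-06). *Fgfr1* was higher by 1.75 ± 0.16 (adjusted p = 3.93e-05) and *Fgfr2* by 1.55 ± 0.11 (adjusted p = 9.05e-06). *Spry2* was higher by 2.42 ± 0.35 (adjusted p = 0.000572).

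*Etv5* was higher in RGC-like cells by 3.24 ± 0.72 on the log2 scale (adjusted p = 0.00538), and the size depended on the library, at 4.55 without replicate 1 and 2.52 without replicate 3. *Etv4* was higher by 3.05 ± 0.59 (adjusted p = 0.00252). *Fgf15*, with 72 UMIs over both libraries against 2, was 31.3 times as high (95% counting interval 8.35 to 263, adjusted p = 0.00422), and its log2 difference was 2.77 without replicate 1 and 4.14 without replicate 3. *Fgf2*, with 37 UMIs against 3, was 10.7 times as high (3.39 to 54.3, adjusted p = 0.00669). *Spry1* (adjusted p = 0.42) and *Fgf9* (adjusted p = 0.834) were not called, although *Spry1* passed the threshold with predicted doublets kept, with stricter cell filters and at a coarser clustering (adjusted p = 0.0107 to 0.0288).

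The IPC-like class was not uniform. Each of its 3 clusters counted 7 IPC markers and 9 projection neuron markers in the naming. The class is therefore not shown to hold progenitors alone. Its largest cluster, with 821 cells, was led by *Cemip*, with *Nhlh1* and *Neurod1* also among the leading genes. Of the 64 *Etv5* UMIs of the class in replicate 1, 57 were in the cycling cluster led by *Neil3*, and of 18 in replicate 3, 12 were. That cluster stood at 35.5 and 6.2 CPM of *Etv5*, against 2.9 and 0.6 CPM in the cluster led by *Neurod4* and 0 and 0.5 CPM in that led by *Cemip*. *Fgfr3* was highest of the 3 in the *Neurod4* cluster, at 19.7 and 21.1 CPM, and lowest in the *Cemip* cluster, at 7.4 and 3.0 CPM. *Fgfr1* had the opposite order, with 49.3 and 49.5 CPM in the *Cemip* cluster. These are descriptions of clusters, with no test.

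RGC-like clusters differed too. The cluster led by *Aldh1l1* had 67.6 and 58.9 CPM of *Etv5*, 18.7 and 4.9 CPM of *Etv4*, 26.3 and 16.2 CPM of *Spry2* and 10.6 and 0.9 CPM of *Fgf15*. The cluster led by *Cenpa* was lowest for *Etv5*, at 24.1 and 15.8 CPM, and for *Fgf15*, at 0.9 and 0.5 CPM. The RGC marker sum was highest in the first of these, at 10507 and 8149 CPM, beside 7955 and 6587 CPM in the second. The cluster led by *Hist1h1b* had the lowest marker sum of the 3, at 6891 and 5620 CPM, with *Etv5* at 73.4 and 35.9 CPM, and the part of marker level in these values was not tested.

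From IPC-like to projection neuron-like cells, *Fgfr3* was lower again, while *Fgfr1* was higher in projection neuron-like cells. *Fgfr3* was higher in IPC-like cells by 1.73 ± 0.18 on the log2 scale (adjusted p = 0.000116). *Fgfr1* was lower in IPC-like cells, at -1.01 ± 0.16 (adjusted p = 0.00101), as were *Fgf9*, at -2.12 ± 0.41 (adjusted p = 0.00314), and *Spry2*, at -1.15 ± 0.36 (adjusted p = 0.0287). *Fgfr2* was lower too, at -0.62 ± 0.11 (adjusted p = 0.00162), but the call was lost with doublets kept and at a coarser clustering, and the sign turned to 0.127 with stricter cell filters (adjusted p = 0.443 to 0.485 for the first and last of these, 0.0957 at the coarser clustering). In all 5 of 10 members were called, 1 higher and 4 lower, a share close to the 42.2% of all genes, of which 19.5% were higher and 22.7% lower in IPC-like cells. *Fgf15*, *Fgf2*, *Spry1*, *Etv4* and *Etv5* were not called.

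Against projection neuron-like cells, RGC-like cells had 8 of the 10 members higher and *Fgf9* lower, where 65.7% of all genes were called, 30.7% higher and 35.0% lower. Of the called genes 46.8% were higher in RGC-like cells, a share that became 57.2% with library sizes as the only scaling, which moved the median of all genes by 0.21. *Fgfr3* had the tightest of the large differences, at 4.14 ± 0.17 (adjusted p = 2.58e-07). *Etv5* was higher by 3.79 ± 0.67 (adjusted p = 0.000927), *Etv4* by 3.29 ± 0.50 (adjusted p = 0.000409) and *Fgf15* by 3.70 ± 0.63 (adjusted p = 0.000772). Without replicate 1 these 3 differences were 4.38, 2.43 and 2.54, and without replicate 3 they were 3.54, 4.03 and 4.34. *Fgf2* was higher by 2.13 ± 0.42, *Spry2* by 1.26 ± 0.29, *Fgfr2* by 0.93 ± 0.10 and *Fgfr1* by 0.74 ± 0.15, with adjusted p-values of 0.00257, 0.00436, 6.21e-05 and 0.00217. *Fgf9* was lower at -1.98 ± 0.38 (adjusted p = 0.00148), and *Spry1* was not called (adjusted p = 0.903). These 3 neural comparisons share classes, so their values stand side by side and are not separate evidence.

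**Figure D3:**
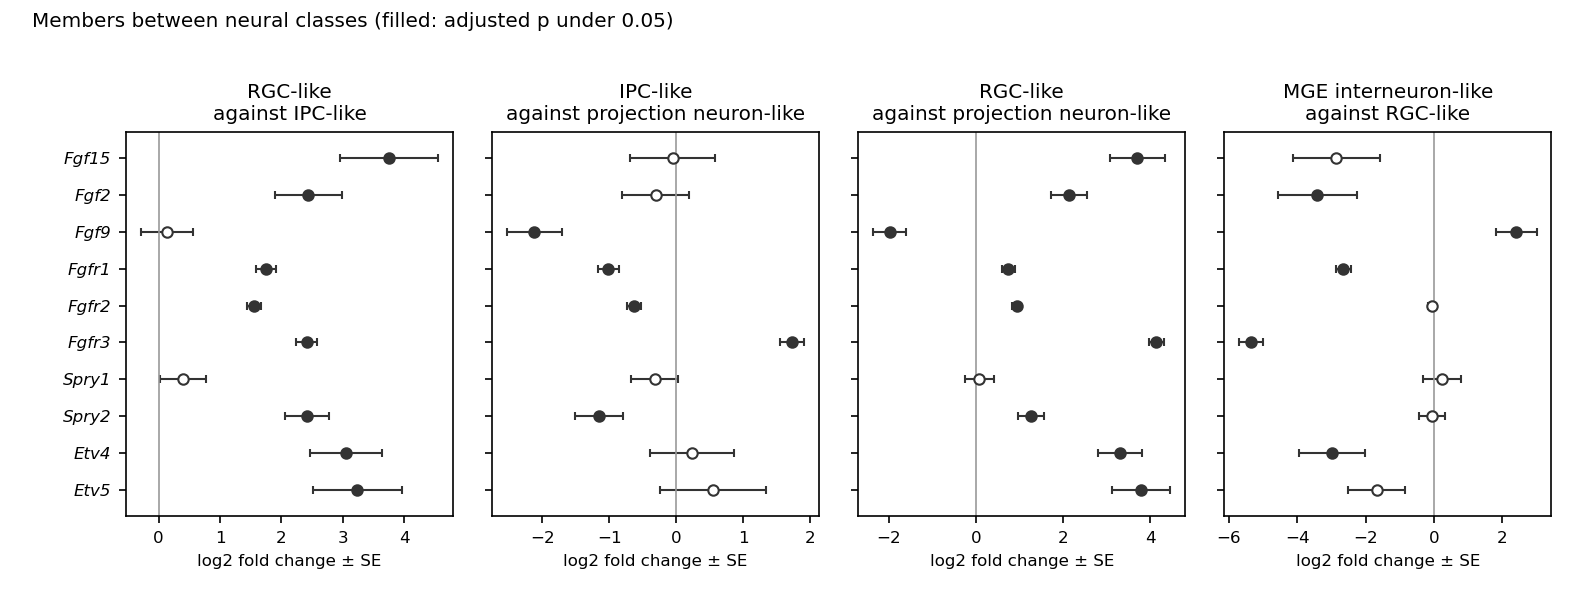
Log2 fold change of each member tested (x axis) with its standard error (bars) in 4 comparisons between neural classes, from UMI sums of 2 libraries per class; filled points have an adjusted p under 0.05, positive values are higher in the class named first and each panel has a scale of its own. Against IPC-like and projection neuron-like cells, RGC-like cells are higher for most members, and *Fgf9* is lower than in projection neuron-like cells at -1.98.

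MGE interneuron-like cells had less *Fgfr1* and *Fgfr3* than RGC-like cells, beside *Fgfr2* levels of 298 and 309 against 338 and 322 CPM. Against RGC-like cells, *Fgfr3* was lower at -5.35 ± 0.34 (adjusted p = 3.53e-06) and *Fgfr1* at -2.65 ± 0.22 (adjusted p = 1.47e-05), while *Fgfr2* was not called (adjusted p = 0.662). From 1 and 3 UMIs of *Fgfr3* in the interneurons, the difference was -4.55 without replicate 1 and -6.36 without replicate 3. *Fgf9* was higher at 2.41 ± 0.59 (adjusted p = 0.00687), from 4 and 2 UMIs in the interneurons against 2 and 4 in RGC-like cells. That call was lost with stricter cell filters (adjusted p = 0.0679). *Fgf2*, at 0 UMIs in the interneurons, was at least 1.58-fold lower (adjusted p = 0.0351), a call lost under 3 of the alternatives (adjusted p = 0.0522 to 0.078), and *Etv4*, at 2 UMIs in the interneurons, was 9.17 times as high in RGC-like cells (2.49 to 76.5, adjusted p = 0.0256). The *Etv4* difference was -1.22 without replicate 1 and -5.64 without replicate 3. In all 5 of 10 members were called, 1 higher and 4 lower, below the 59.0% of all genes, of which 28.9% were higher and 30.2% lower. With the replicate as a block, *Fgf15* (adjusted p = 0.0167) and *Etv5* (adjusted p = 0.00625) were also called lower in the interneurons.

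Against projection neuron-like cells, the same interneurons had more *Fgfr2*, at 0.87 ± 0.11 (adjusted p = 0.0005), and less *Fgfr1*, at -1.91 ± 0.22 (adjusted p = 0.000371). *Spry2* was higher at 1.2 ± 0.40 (adjusted p = 0.0469), a call lost under 4 of the alternatives (adjusted p = 0.0575 to 0.101), with a difference of 0.593 without replicate 1 and 1.5 without replicate 3. *Etv5*, at 19.5 and 9.02 CPM, was not called (adjusted p = 0.131) but was with the replicate as a block (2.04 on the log2 scale, adjusted p = 0.0219). This made 3 of 10 members, 2 higher and 1 lower, close to the 33.6% of all genes called, 13.3% higher and 20.3% lower. Of the called genes 39.5% were higher in the interneurons, or 53.4% with library sizes as the only scaling. The interneurons were shallow, with a median of 4519 and 4018.5 UMIs per cell.

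Cajal-Retzius-like cells, early neurons of the marginal zone, differed from projection neuron-like cells in 4 of the 9 members tested, 1 higher and 3 lower, where 24.2% of genes were called, 11.7% higher and 12.5% lower. *Fgfr1* was lower at -2.08 ± 0.29 (adjusted p = 1.6e-05) and *Fgfr2* at -0.79 ± 0.17 (adjusted p = 0.00196). *Fgf9* was higher at 1.85 ± 0.60 (adjusted p = 0.0334), with 0.86 without replicate 1 and 2.49 without replicate 3, and the call was lost with doublets kept (adjusted p = 0.0895). *Fgfr3*, with 0 UMIs, was at least 1.67-fold lower (adjusted p = 0.046), a call lost under 4 of the alternatives (adjusted p = 0.0761 to 0.432). *Fgf15* was too low to be tested. Of all called genes 48.3% were higher in Cajal-Retzius-like cells, a share of 58.4% in DESeq2 and 70.6% with library sizes only, where the median gene moved by 0.28.

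*Spry1* was higher and *Fgfr3* lower in all 3 non-neural classes tested than in RGC-like cells, while *Spry2* was higher in meningeal- and pericyte-like and lower in endothelial-like cells. Meningeal-like cells had *Fgf2* higher by 3.64 ± 0.48 (adjusted p = 1.3e-05), *Spry1* by 3.34 ± 0.37 (adjusted p = 5.89e-07) and *Spry2* by 1.14 ± 0.32 (adjusted p = 0.00624). *Fgfr2* was lower at -0.56 ± 0.16 (adjusted p = 0.00879) and *Fgfr3* at -4.90 ± 0.52 (adjusted p = 4.75e-07). *Fgfr1* was not called (adjusted p = 0.0996), though it was with library sizes only and with no filter on low counts (adjusted p = 0.0278 and 0.00569). That gave 5 of 9 members, 3 higher and 2 lower, close to the 46.2% of all genes, 25.3% higher and 20.9% lower.

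Pericyte-like cells, the mural cells of capillaries, had the largest Sprouty increases of the 3 classes, with *Spry1* higher by 4.81 ± 0.37 (adjusted p = 6.06e-09) and *Spry2* by 1.95 ± 0.33 (adjusted p = 0.000116). *Fgfr1* was lower at -2.02 ± 0.28 (adjusted p = 9.02e-06) and *Fgfr2* at -1.72 ± 0.18 (adjusted p = 2.79e-07). *Fgfr3*, with 0 UMIs against 1493, was at least 24.1-fold lower. *Etv4* was not called (adjusted p = 0.0621) but passed the threshold under 4 of the alternatives (adjusted p = 0.014 to 0.0439). This was 5 of 9 members, 2 higher and 3 lower, where 37.1% of genes were called, 19.3% higher and 17.7% lower. After thinning, 27.0% and 11.1% of pericyte-like cells held a *Spry1* UMI, from 37 and 45 cells, against 0 of 49 and 0 of 63 red blood cell-like cells. Without thinning it was 59.0% and 40.0% of pericyte-like cells.

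Endothelial-like cells differed from pericyte-like cells in *Spry2*. *Spry1* was higher than in RGC-like cells by 2.12 ± 0.52 (adjusted p = 0.00267), from 6 UMIs in each library, while *Spry2*, with 3 UMIs, was 5.72 times as high in RGC-like cells (1.94 to 27.9, adjusted p = 0.00917). That *Spry2* call was lost with doublets kept (adjusted p = 0.0728), and its log2 difference was -1.63 without replicate 1 and -2.97 without replicate 3. *Etv5* was lower at -3.38 ± 0.98 (adjusted p = 0.00907), *Fgfr1* at -2.15 ± 0.28 (adjusted p = 3.19e-06) and *Fgfr2* at -0.94 ± 0.17 (adjusted p = 0.000154). *Fgfr3*, with 2 UMIs against 1493, was 41.3 times as high in RGC-like cells (11.4 to 341), at -7.40 on the log2 scale without replicate 1 and -3.83 without replicate 3. In all 6 of 9 members were called, 1 higher and 5 lower, where 42.0% of genes were called, 21.3% higher and 20.7% lower. The difference in *Spry2* between endothelial-like and pericyte-like cells themselves was not tested.

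RGC markers were not at 0 in these classes. Their summed level was 2419 and 2636 CPM in meningeal-like, 2208 and 2508 CPM in pericyte-like and 2086 and 1677 CPM in endothelial-like cells, with between 1 and 3 of the 10 markers at 0 in each library. It was 242 and 290 CPM in red blood cell-like cells. Their part in the *Etv5*, *Fgfr1* and *Fgfr2* levels of the non-neural classes was not tested. With predicted doublets kept, *Fgfr3* in pericyte-like cells was -3.85 on the log2 scale against RGC-like cells.

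**Figure D4:**
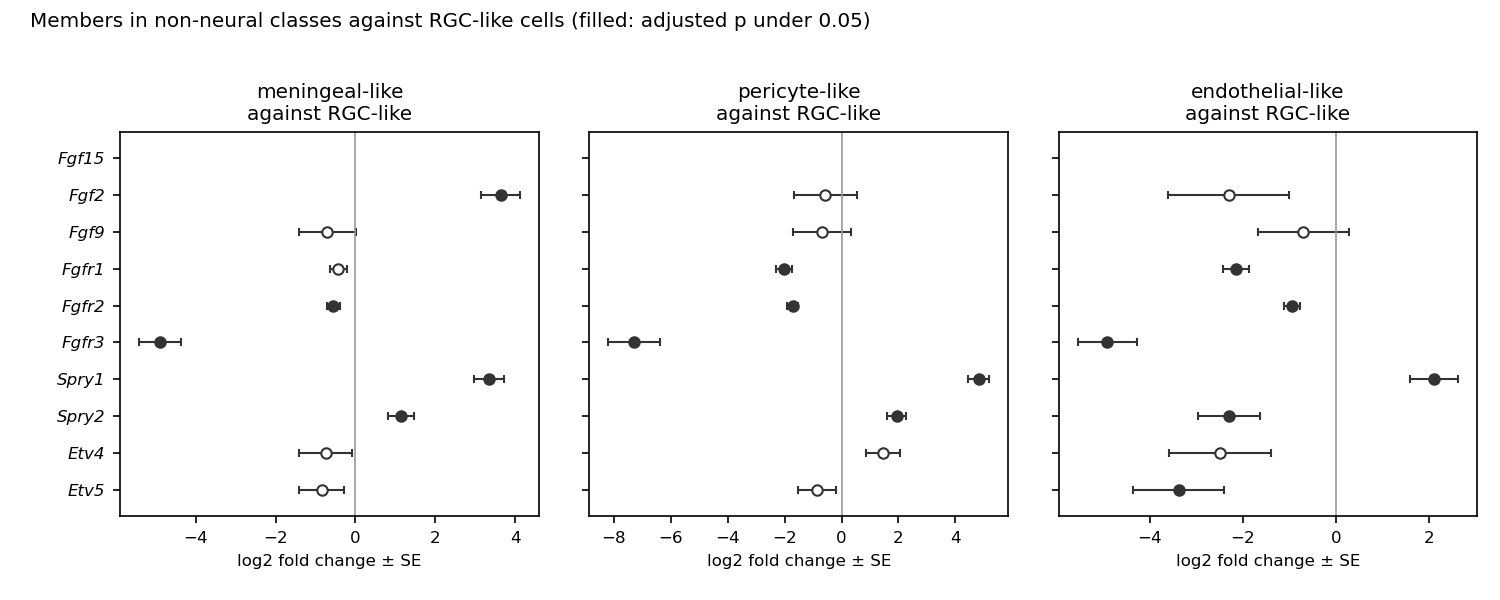
Log2 fold change of each member tested (x axis) with its standard error (bars) in meningeal-, pericyte- and endothelial-like cells against RGC-like cells, from UMI sums of 2 libraries per class; filled points have an adjusted p under 0.05, positive values are higher in the non-neural class, each panel has a scale of its own, and *Fgf15* was not tested. *Spry1* lies to the right in all 3 panels, at 3.34, 4.81 and 2.12, and *Fgfr3* far to the left, where its place in pericyte-like cells, with 0 UMIs, depends on the prior count of the fit.

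The 4 unnamed clusters are given by their values. The *Adamts19* cluster, with 121 and 487 cells, matched RGC-like cells in *Fgfr3* but had *Etv5* at 4.79 and 8.73 CPM and *Spry2* at 3.42 and 3.09 CPM, both below the RGC-like range. All 10 RGC markers were above 10 CPM in it, with a sum of 4523 and 3844 CPM. The *Smoc1* and *Neurog1* cluster, with 217 and 389 cells, had *Etv5* at 8.41 and 5.12 CPM beside an RGC marker sum of 3871 and 3304 CPM. The *Ttr* and *Htr2c* cluster, led by genes of choroid plexus, had *Spry1* and *Spry2* in the range of the non-neural classes and *Fgfr3* at 6.97 and 8.49 CPM, from 21 and 129 cells. Its RGC marker sum was 13563 and 3240 CPM, and it counted 7 cortical hem and 5 choroid plexus markers in the naming. The *Gm27008* and *Cdh8* cluster, with 274 and 341 cells, held 0 *Spry1*, *Fgf2* and *Fgf9* UMIs and 1 *Etv5* UMI, with *Fgfr2* at 105 and 79.5 CPM. These values carry no test.

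Other pathway genes, 81 in all, differed in both directions. Between RGC-like and IPC-like cells 67 were tested, of which 19 were higher and 15 lower in RGC-like cells, 34 in all, where 25.0% of all genes were higher, 24.8% lower and 49.9% called in either direction. Of 16 receptors and co-receptors tested 8 were higher and 4 lower, and of 19 adaptors and kinases of the RAS-ERK relay 2 were higher and 8 lower. The glypican gene *Gpc3* was higher, at 44.7 and 59.5 against 2.42 and 2.28 CPM (4.28 ± 0.22), and *Flrt1*, whose protein binds FGF receptors, was lower, at 2.29 and 2.64 against 72.6 and 59.6 CPM (-4.73 ± 0.17). The adaptor *Grb2* was lower, at -0.81 ± 0.09 (adjusted p = 0.000117).

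The 13 other feedback and target genes tested in that comparison held 5 higher and 1 lower, with a median of 0.59. Of all genes 25.0% were higher and 24.8% lower. *Spred2*, an inhibitor of the RAS-ERK relay, was higher at 96.4 and 81.8 against 23.0 and 21.8 CPM (1.87 ± 0.14, adjusted p = 1.27e-05). *Etv1*, another ETS factor gene of the same subfamily, was higher at 93.1 and 52.5 against 28.8 and 9.90 CPM (1.87 ± 0.63, adjusted p = 0.0355), and *Il17rd*, a receptor-level inhibitor, at 17.8 and 7.85 against 3.06 and 2.51 CPM (2.02 ± 0.38, adjusted p = 0.0024). *Dusp4*, a phosphatase that acts on ERK in the nucleus, went the other way, at 1.14 and 1.53 CPM in RGC-like and 39.5 and 51.8 CPM in IPC-like cells (-5.00 ± 0.21, adjusted p = 7.95e-07).

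*Dusp6*, the cytoplasmic ERK phosphatase often used as a readout of FGF signalling, had another order of classes than *Etv5*. RGC-like cells had 0.762 and 1.18 CPM, IPC-like cells 0.644 and 0.533 CPM, and projection neuron-like cells 11.0 and 10.1 CPM. Endothelial-like cells had 77.5 and 75.4 CPM (5.88 ± 0.30 against RGC-like cells, adjusted p = 1.05e-11), pericyte-like cells 54.0 and 68.2 CPM (5.52 ± 0.32, adjusted p = 1.05e-10) and meningeal-like cells 44.9 and 45.7 CPM (5.12 ± 0.29, adjusted p = 6.26e-11). In pericyte-like cells 10 of the 12 other feedback and target genes tested passed as higher against RGC-like cells and 0 as lower. Of all genes 19.3% were higher and 17.7% lower there. The median of the list was 1.4 beside -0.10 over all genes. Among the called genes of the list *Spry4* stood at 64.8 and 73.0 CPM against 2.16 and 0.695 CPM (5.41 ± 0.50, adjusted p = 1.5e-07). The same list had 5 higher and 2 lower in meningeal-like and in endothelial-like cells. Of all genes 25.3% were higher and 20.9% lower in meningeal-like cells, and 21.3% and 20.7% in endothelial-like cells.

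Of the 15 other secreted ligands only 4 were high enough to be tested between the neural classes. *Fgf18* was at 5.32 and 7.47 CPM in projection neuron-like cells and at 0.161 and 0.913 CPM in IPC-like cells (-3.11 ± 0.45, adjusted p = 0.000685). *Fgf10*, with 1 UMI in IPC-like cells, was 32.0 times as high in projection neuron-like cells (5.59 to 1276). From IPC-like to projection neuron-like cells 13 of the 67 pathway genes were higher in the first and 25 in the second, where 19.5% and 22.7% of all genes were. Between RGC-like and projection neuron-like cells these counts were 18 and 32, where 30.7% and 35.0% of all genes were. MGE interneuron-like cells had 16 higher and 16 lower than projection neuron-like cells (13.3% and 20.3% of all genes), and 21 and 21 against RGC-like cells (28.9% and 30.2%). Cajal-Retzius-like cells had 8 higher and 15 lower of 57 tested (11.7% and 12.5% of all genes). Against RGC-like cells, the counts of 57 tested were 23 higher and 9 lower in meningeal-like cells (25.3% and 20.9% of all genes), 19 and 14 in endothelial-like cells (21.3% and 20.7%) and 19 and 12 in pericyte-like cells (19.3% and 17.7%).

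Cell cycle phase within RGC-like cells took no member past the threshold in edgeR without a block. Phases were scored on cells thinned to 3000 UMIs, which gave 149 and 249 cells in G1, 177 and 396 in S and 202 and 401 in G2M. Of the 7 members high enough to be tested, 0 were called in S against G1, where 6.38% of genes were, and 0 in G2M against G1, where 5.4% were. In edgeR 0 and 1 of them had an unadjusted p under 0.05, and DESeq2 called 0 in both. *Etv5* stood at 49.4 and 32.2 CPM in G1, 60.1 and 38.4 CPM in S and 77.7 and 41.7 CPM in G2M, and with the replicate as a block it was called higher in G2M (0.513 on the log2 scale, adjusted p = 0.0139), as it was under 3 other alternatives (adjusted p = 0.00849 to 0.0404). Its size there was 0.592 with no filter on low counts, 1.72 at the coarser clustering and 2.18 with clusters named by markers alone. *Fgfr3* went from 56.7 and 62.4 CPM in G1 to 74.6 and 75.9 CPM in G2M (adjusted p = 0.159), and was called there under 3 alternatives (adjusted p = 0.0012 to 0.0409). *Fgf2*, *Fgf9* and *Spry1* were too low to be tested. Of the other pathway genes 2 were called in each comparison, *Gpc6* in both, at 1.04 ± 0.11 in S (adjusted p = 0.000962).

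*Nr2f1*, which encodes a transcription factor graded from low in front to high behind in the early cortex, marked RGC-like cells with more *Fgfr3*. On cells thinned to 5000 UMIs, those with 2 or more *Nr2f1* UMIs numbered 215 and 353, and those with 0 numbered 174 and 400. *Fgfr3* was at 93.4 and 103 CPM in cells with *Nr2f1* and at 32.5 and 34.4 CPM in cells without (1.53 ± 0.12, adjusted p = 0.00846). This was 1 of 8 members tested and 1 of 23 genes called, 0.19% of all tested, with 0.0743% higher and 0.116% lower, although 819 genes had an unadjusted p under 0.05. The call was lost at a coarser clustering (adjusted p = 0.0888) with the difference at 1.55. *Fgfr2* was at 399 and 357 CPM with and at 250 and 276 CPM without *Nr2f1* (adjusted p = 0.312). With the replicate as a block, *Fgfr2* was called higher (0.51, adjusted p = 0.000391) and *Etv5* lower (-0.43, adjusted p = 0.0291) in cells with *Nr2f1*. *Fgf2* and *Fgf9* were too low to be tested, and none of 54 other pathway genes was called in edgeR.

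**Figure D5:**
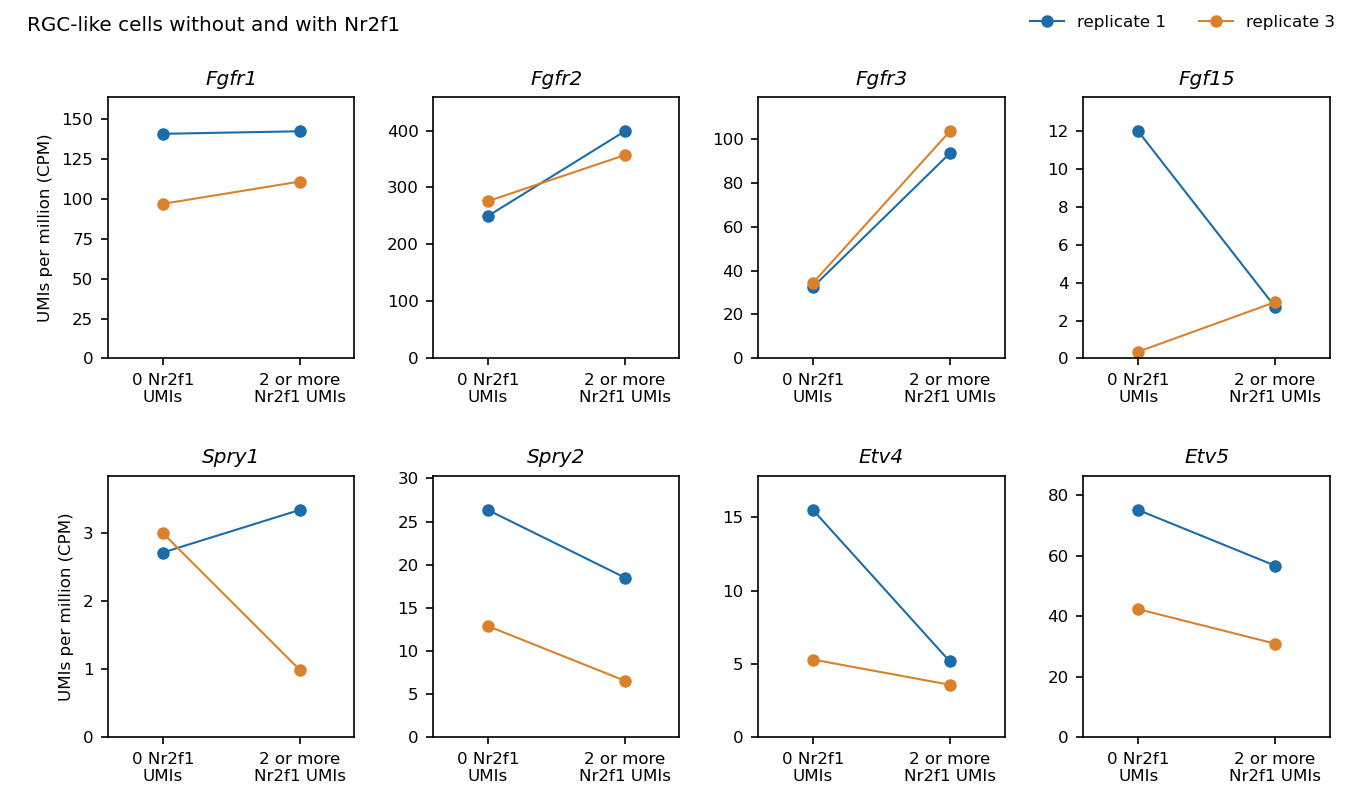
Levels of the 8 members tested in CPM (y axis, linear from 0, a scale of its own for each gene) in RGC-like cells with 0 and with 2 or more *Nr2f1* UMIs, 1 line for each library. *Fgfr3* is at 32.5 and 34.4 CPM without and at 93.4 and 103 CPM with *Nr2f1*, while for *Fgf15* the lines of both libraries cross.

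Likeness to each member was taken as Pearson's r of log2 levels over 22 sums of 11 classes, among 11752 other genes. These sums share libraries and differ in depth, so r is a description only. Nearest to *Fgfr3* were *Tfap2c* (r = 0.87) and *Prdm16* (0.83), to *Fgf15* *Slc6a11* (0.91) and *Acsbg1* (0.88), and to *Etv5* *Mybl2* (0.85) and *Pmf1* (0.85). *Fgf2* was nearest to *Cyp1b1* (0.93) and *A2m* (0.92), *Spry1* to *Tgfb1i1* (0.93) and *Pdlim2* (0.93), and *Etv4* to *Notch3* (0.86) and *Axl* (0.85). *Fgfr1* was nearest to *Bckdhb* (0.89), *Fgfr2* to *Memo1* (0.93), *Spry2* to *Sept11* (0.88) and *Fgf9* to *Gm21798* (0.92).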

How the data were processed

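The 2 libraries were made with the 10x Genomics single cell 3′ v3.1 kit. Per the labels, the authors' reads were processed with Cell Ranger 7.0.0 against mm10, and the deposited matrices hold UMI counts per gene and barcode, not normalized and down to 500 UMIs per barcode. The gene annotation, the use of intronic reads and the cell calling are not given in the sources used here. The members and gene lists were chosen with earlier results of these data known.

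Cells had to hold 1500 to 60000 UMIs, fewer than 10% of them mitochondrial, after limits the study gives for its nuclei, and the 304 and 629 cells with the highest scrublet doublet scores (scanpy 1.11.5) were removed, an expected 0.8% per 1000 barcodes. Cells were clustered (Python 3.11.15, 2000 variable genes, 30 components, 15 neighbours, Leiden resolution 1.0) without the members and the 81 pathway genes, and a cluster was named from at least 3 of its class's markers unless its 10 leading genes held more markers of another class.

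UMIs were summed per class and library and tested across all genes with edgeR 4.0.16 (R 4.3.3, TMM, filterByExpr, quasi-likelihood, prior count 2) and Benjamini-Hochberg adjustment at 0.05. The SE in text and figures is derived from the test, as the absolute log2 fold change over the square root of the quasi-likelihood F. Same-numbered sums come from the same library, so the numbers pair them (correlations of deviations 0.00506 to 0.350), and a fit with the replicate as a block was an alternative. Others were DESeq2 1.42.0, library sizes only, no low-count filter, doublets kept, stricter cells (3000 UMIs, 5% mitochondrial), Leiden resolution 0.5, leaving out each library and, chosen after seeing the data, naming by markers alone. The tests were checked on simulated counts. Changes of 0.5 on the log2 scale were recovered for 9.09% of genes between RGC-like and IPC-like cells and 5.56% in Cajal-Retzius-like cells. In S against G1 it was 4.62% and for *Nr2f1* 7.46%, so a change of that size mostly goes uncalled. For changes of 1 the shares were 68.8%, 32.8%, 65.1% and 62.7% in the same order. A count of 0 was given a floor of 3 counts over both libraries. A difference given as at least so many fold is the level of the other class over that floor. It leaves out the counting error of the other class. Ratios of few counts have exact 95% intervals, which cover counting error only. Pathway genes named are up to 4 per list by size of change among those called. Upstream sequences came from RefSeq (GRCm38.p6).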

Additional observations from a re-analysis of the deposited data

How the results depend on the processing

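Of the 51 member differences that passed the threshold, 50 kept their sign under all alternatives run and 43 passed in every alternative that gave a test. The exception in sign was *Fgfr2* between IPC-like and projection neuron-like cells, at 0.127 with stricter cell filters. Of the 57 other member values, 31 changed sign and 18 passed the threshold under some alternative. Among values that passed in some setting and the pathway genes named, signs also turned for *Sulf1* against RGC-like cells in MGE interneuron-like cells (-0.429, stricter filters) and against projection neuron-like cells in Cajal-Retzius-like cells (3.07 without replicate 1 and -0.208 without replicate 3), for *Fgfr2* in MGE interneuron-like against RGC-like cells (0.051, naming by markers alone), and for *Fgfr3* in S against G1 (-0.00491 with stricter filters, -0.079 with phases on cells thinned to 2000 UMIs). Members called numbered 2 in Cajal-Retzius-like cells with doublets kept and with stricter filters, and 8 in meningeal-like cells with no low-count filter.

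The counts of genes called within RGC-like cells moved most. In S against G1, 754 genes were called, beside 1534 with no low-count filter, 2242 with the replicate block, 2172 with doublets kept, 1236 with stricter filters, 1583 at resolution 0.5, 2978 with naming by markers alone, which called 2 members, and 481 with phases on 2000 UMIs. In G2M against G1, 638 became 1390, 2158, 1899, 1118, 1450 and 2876 in the same order of the first 6, with 1, 1, 1, 0, 2 and 3 members. For *Nr2f1*, 23 became 75 in DESeq2, 431 with no filter, 577 with the block, 6 with doublets kept, 9 at resolution 0.5, 13 with naming by markers alone and 9 with 1 or more *Nr2f1* UMIs, and members called were 2 with no filter, 3 with the block and 0 at resolution 0.5. The replicate block changed no member's call other than those given beside the results. Leaving out a library gives a value with no test. Of 110 member levels, 29 moved by more than 1 SD with doublets kept and 18 at resolution 0.5, and 33 of 100 did with stricter filters. A split by *Sp8* was not run, as 22 cells held it in replicate 1, under the minimum of 50, and endothelial-like cells could not be tested with stricter filters. With 2 libraries, few UMIs in *Fgf15*, *Fgf2*, *Fgf9* and *Etv4* and small non-neural classes limit precision.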
